A study of Mus musculus with 6 samples.

Results

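The Jun and Fos genes encode the subunits of the transcription factor AP-1, and their 7 mRNAs (Jun, Junb, Jund, Fos, Fosb, Fosl1 and Fosl2) were followed here in RNA bound by an antibody against the RNA-binding protein hnRNPK. They were taken as a named gene family from the 53379 genes of the count tables, and all 7 were among the 16929 genes with enough reads to be tested. The 6 libraries came from the insulin-secreting mouse insulinoma line Min6 at passage 31. All cells, in both groups, had been kept for 30 h in 25 mM glucose and 500 µM palmitic acid, a load of sugar and saturated fat that the labels call glucolipotoxicity, and no untreated cells were analysed here. 3 libraries held RNA recovered from 200 µg of lysate protein on beads carrying the hnRNPK antibody (hnRNPK IP), and 3 held total RNA from a 10% input of the lysate. No pull-down with a control antibody was analysed here, and RNA held by the beads alone counts as IP RNA.

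AP-1 is a dimer held together by a leucine zipper, in which Jun proteins can pair with each other or with a Fos protein, while Fos proteins need a Jun partner. Jun, Junb, Fos and Fosb are classic immediate early genes, whose mRNAs appear within minutes of a stimulus and decay fast, in part through AU-rich elements in the 3′ UTR, whereas Jund is transcribed more steadily. hnRNPK belongs to the poly(C)-binding proteins and binds C-rich single-stranded RNA through its KH domains. The study asked which mRNAs hnRNPK binds under glucolipotoxicity, with Jund among those of interest.

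Because hnRNPK prefers runs of C, the stretch of 30 bases with the most C was located in the 3′ UTR of each mRNA (GENCODE M21 transcripts, GRCm38, sense strand, with T for U). It is shown for 5 of the 7 mRNAs, with every base that lies in a run of at least 3 C in capitals. The stretches of Fosl1 and Jun, not shown, hold such runs too, and that of Fos alone holds none.
Jund, chr8:70700466-70700495, plus strand: aCCCtctCCCCtCCCCCCCCCCCCgctctc
Fosl2, chr5:32153459-32153488, plus strand: cggctaCCCCCacctcaCCCCaCCCCCCCC
Fosb, chr7:19304059-19304088, minus strand: CCCCCtCCCaactcaggCCCgctCCCaCCC
Junb, chr8:84977031-84977060, minus strand: ggacctccgCCCCCtgCCCtCCCCCtctgc
Fos, chr12:85476623-85476652, plus strand: catccacatctggcctccagtcctcacctc
The Jund stretch, which starts 383 bases after the stop codon, held 23 C, a count reached in 11 of the 1592 tested 3′ UTRs within 25% of its length (0.691%). The stretches of Fosl2, Fosb and Junb held 22, 20 and 19 C, counts reached in 8.01%, 13.0% and 7.79% of 3′ UTRs of like length. Those of Fos (15 C), Fosl1 (15 C) and Jun (14 C) were ordinary, since 56.0%, 52.5% and 75.2% of 3′ UTRs of like length held as many.

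The AU-rich side of the same 3′ UTRs is shown for Fos and Jun, whose pentamer ATTTA, the core of AU-rich elements with T for U, is in capitals in the first stretch of 30 bases that holds the most of them.
Fos, chr12:85477090-85477119, plus strand: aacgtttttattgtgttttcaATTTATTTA
Jun, chr4:95049210-95049239, minus strand: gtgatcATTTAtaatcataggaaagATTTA
Both stretches held 2 pentamers, which overlap in Fos, and 11.3% (Fos) and 16.6% (Jun) of 3′ UTRs of like length held as many in 30 bases. Fosl2 also held 2 in such a stretch, as many as in 45.5% of 3′ UTRs of like length. Junb, Jund, Fosb and Fosl1 held at most 1. Whole 3′ UTRs held 4 pentamers in Fos and 4 in Jun, 2 in Junb, 8 in the much longer Fosl2 (4653 nt), and 1 each in Jund, Fosb and Fosl1. These are matches of letters, and binding at these positions was not measured.

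Libraries held 38764925 to 52735957 counted reads, and the 7 mRNAs together took 0.0373% to 0.0413% of them. IP libraries varied more than total RNA libraries, with a biological coefficient of variation over all genes of 42.6% against 12.1%. The beta cell origin of the cells was plain in total RNA from Ins2 (10500 ± 2730 CPM, the normalised count scaled to library size) and Iapp (14200 ± 2380 CPM; SD, n = 3). In the IP both were depleted (log2 fold changes of −2.42 and −3.28), while the beta cell transcription factor genes Pdx1 (1.52) and Nkx6-1 (1.43) were enriched. Of 7 markers of other islet cells, 5 were tested and 2 (Irx2 and Ppy) were depleted, calls that held in 12 of 16 alternatives each. That list summed to 127 to 175 CPM in the IP and 139 to 174 CPM in total RNA, nearly all of it Gcg, the glucagon gene (145 ± 24.6 and 151 ± 17.3 CPM). Of 6 exocrine and duct markers, 3 (Cpa1, Prss1 and Amy2a5) had no read, and the list summed to at most 1.03 CPM in a library. Of 8 stromal, endothelial and immune markers, 4 were tested and 2 (Col1a1 and Col3a1) were enriched, and the list summed to 6.31 to 8.24 CPM in the IP and 2.88 to 4.19 CPM in total RNA. Their part in the results was not tested. In bulk libraries a low marker level from few cells and one from little RNA per cell cannot be told apart.

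The family divided in the IP. Jund, Fosb, Fosl1 and Fosl2 were enriched and Jun, Junb and Fos were depleted by edgeR's quasi-likelihood test, at a p under 0.05 after Benjamini-Hochberg adjustment over all genes tested. That makes 4 enriched and 3 depleted of 7, where 28.9% of all genes tested were enriched and 33.6% depleted (62.4% in all). In all 7 the IP and total RNA libraries did not overlap, as in 71.4% of all genes tested (32.2% with the IP higher and 39.3% with the IP lower), so that a call or a gap between groups was common in these libraries. Libraries were scaled to one another without a spiked-in standard, so all differences are relative. The labels do not say whether replicate libraries stem from separate cultures, and if they do not, p-values reflect technical spread alone.

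**Figure D1:**
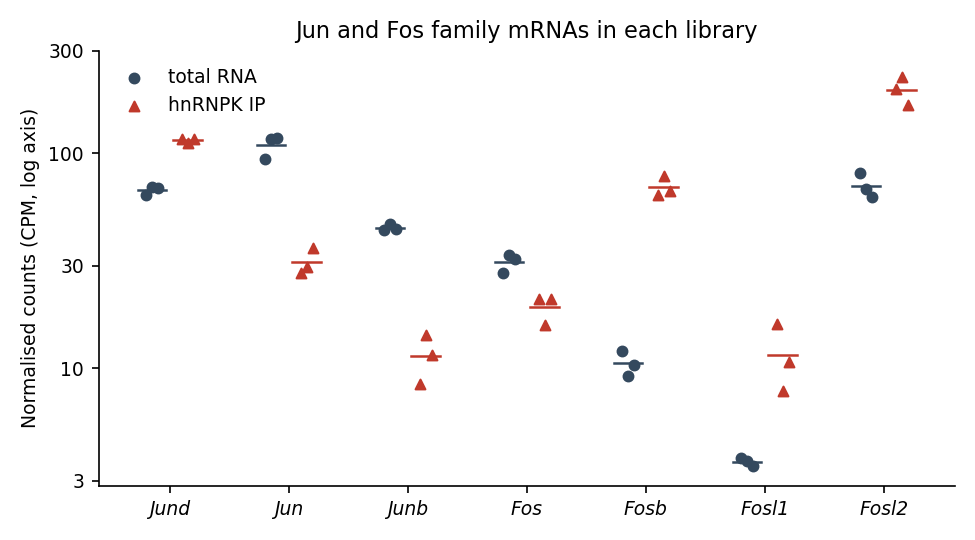
Normalised counts (CPM, log axis) of the 7 mRNAs, with 1 point per library, circles for total RNA and triangles for the hnRNPK IP, and a line at each mean. Triangles lie above the circles for Jund, Fosb, Fosl1 and Fosl2 and below them for Jun, Junb and Fos, and Fosl1 has the widest relative scatter in the IP (7.80 to 16.1 CPM).

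Among the Jun genes, Jund, a subunit often linked to restraint of growth and to protection from oxidative stress, was the one that was enriched. Jund (ENSMUSG00000071076.6, a single exon at chr8:70698949-70700616, plus strand) had 117, 112 and 116 CPM in IP libraries 1, 2 and 3 and 63.9, 69.9 and 69.0 CPM in total RNA libraries 1, 2 and 3. The IP libraries lay close together and all above total RNA. Its log2 fold change, IP minus total RNA, was 0.77 ± 0.08 (SE), or 1.70-fold higher in the IP (adjusted p = 0.000103 by edgeR). That value lay above 70.6% of all genes tested, so Jund was a moderately enriched mRNA in these libraries. Its size depended on the scaling, with 1.26-fold from library totals alone and 2.68-fold with an offset for gene length. Of its exon, 877 nt (52.6%) are shared with the antisense gene Gm11175, which had no read in any library. Without a known strand setting, it is open whether reads of that overlap were counted for Jund.

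Jun, the founding member of AP-1 and the main target of the JNK kinases, was depleted. Jun (ENSMUSG00000052684.4, a single exon at chr4:95049034-95052222, minus strand) had 27.8, 29.5 and 36.1 CPM in the IP and 93.8, 117 and 118 CPM in total RNA. Every IP library thus held less than any total RNA library, by a wide margin. The mRNA was 3.51-fold lower in the IP, with a log2 fold change of −1.81 ± 0.14 (adjusted p = 1.81e-05 by edgeR).

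Junb, which often opposes Jun on shared target genes, was the most depleted member. Junb (ENSMUSG00000052837.6, chr8:84974484-84978718, minus strand) had 8.48, 14.3 and 11.5 CPM in the IP and 43.9, 46.7 and 44.6 CPM in total RNA. Total RNA libraries agreed closely, while IP libraries ranged widely below them. Junb was 3.94-fold lower in the IP, with a log2 fold change of −1.98 ± 0.19 (adjusted p = 5.12e-05 by edgeR). Junb shares 173 nt of exon with the antioxidant gene Prdx2 on the opposite strand, which had 479 to 922 reads per IP library and 6501 to 8027 per total RNA library, and without a known strand setting reads of that overlap cannot be told apart.

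Fos, the prototype immediate early gene, was the least changed of the depleted members. Fos (ENSMUSG00000021250.13, 4 exons at chr12:85473890-85477273, plus strand) had 20.9, 15.9 and 21.1 CPM in the IP and 27.8, 33.6 and 32.3 CPM in total RNA. The groups came within a few CPM of each other without overlapping. Its log2 fold change was −0.70 ± 0.15, or 1.62-fold lower (adjusted p = 0.00476 by edgeR), and −0.38 with the offset for gene length.

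Fosb, a Fos protein known for a truncated splice form that accumulates under repeated stimulation, stood at the other end. Fosb (ENSMUSG00000003545.3, 4 exons at chr7:19302696-19310051, minus strand) had 64.1, 78.0 and 66.5 CPM in the IP against 12, 9.18 and 10.4 CPM in total RNA. Each IP library held more than 5 times the level of any total RNA library. The IP level was 6.60-fold higher, with a log2 fold change of 2.72 ± 0.14 (adjusted p = 3.29e-06 by edgeR), above 98.7% of all genes tested. Counts per gene do not separate the full-length and truncated forms.

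The Fos-related subunits Fosl2 (Fra-2) and Fosl1 (Fra-1), which lack the strong activation domains of Fos and Fosb, were both enriched. Fosl2 (ENSMUSG00000029135.10, chr5:32135801-32157842, plus strand) had 199, 227 and 168 CPM in the IP and 81.0, 68.1 and 62.7 CPM in total RNA. Its log2 fold change was 1.49 ± 0.14, or 2.81-fold higher (adjusted p = 5.04e-05 by edgeR), and 0.76 with the offset for gene length. Fosl2 has the longest transcript of the family, at 6537 nt.

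Fosl1 was the fourth enriched member. Fosl1 (ENSMUSG00000024912.5, chr19:5447547-5455946, plus strand) had 16.1, 7.80 and 10.7 CPM in the IP and 3.84, 3.69 and 3.50 CPM in total RNA. IP library 1 was highest and IP library 2 lowest, yet all 3 lay above total RNA. Its log2 fold change was 1.65 ± 0.29, or 3.13-fold higher (adjusted p = 0.00128 by edgeR). Of its 2033 nt of exon in GENCODE M21, 1163 nt are shared with Ccdc85b on the opposite strand, which went the other way with 63 to 315 reads per IP library and 2044 to 2055 per total RNA library. The sources used here do not say how reads of that stretch were assigned.

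**Figure D2:**
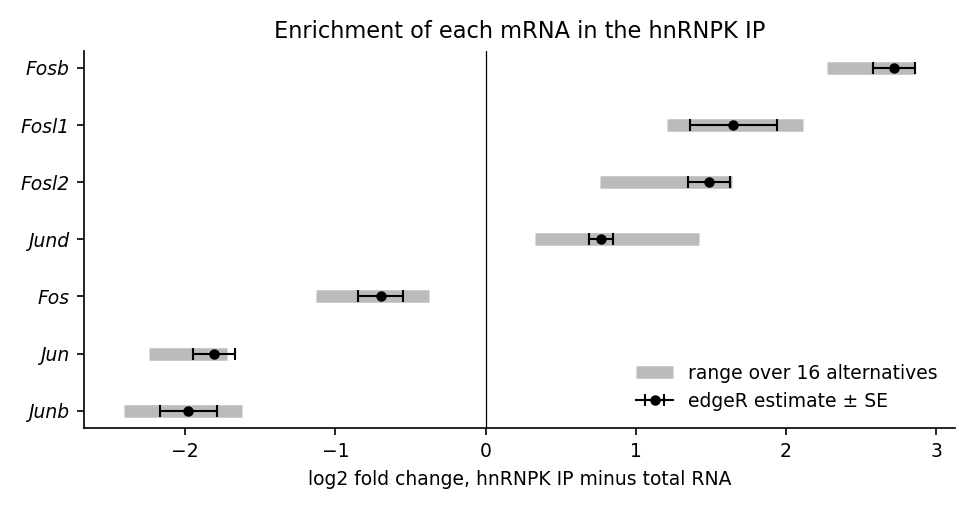
Log2 fold change of each mRNA, hnRNPK IP minus total RNA, as the edgeR estimate ± SE (points and bars) with the range over 16 alternative analyses (grey bands). Bands of Jund, Fosb, Fosl1 and Fosl2 lie above 0 and those of Jun, Junb and Fos below it, with the widest band for Jund (0.33 to 1.42).

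All 7 calls kept their direction and their side of the threshold in each of the 16 alternatives, which changed the scaling, the tool, the filter, the pairing or left out 1 library. Among them, the Benjamini-Hochberg adjusted p was at most 0.0349 for Fos (edgeR without total RNA replicate 2) and at most 0.00912 for the others.

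**Figure D3:**
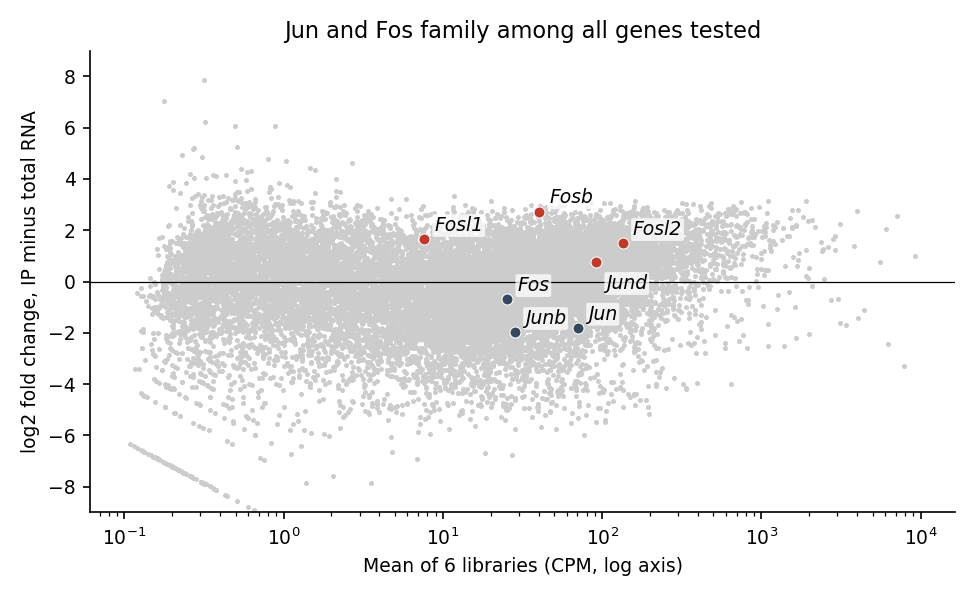
Log2 fold change, hnRNPK IP minus total RNA, against the mean of the 6 libraries (CPM, log axis) for the genes tested (grey), with enriched members in red and depleted ones in dark blue. Members lie inside the cloud, with Fosb at its upper edge (2.72), and 3 genes fall outside the axis.

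To compare levels between genes, CPM was divided by exon length. In total RNA, Jund ranked first with 40.5 ± 1.93 CPM per kb (SD, n = 3), followed by Jun (34.3 ± 4.25), Junb (19.6 ± 0.639), Fos (13.3 ± 1.28) and Fosl2 (7.29 ± 0.972). Fosl1 (1.81 ± 0.0829 CPM per kb) and Fosb (1.69 ± 0.226 CPM per kb) came last and overlapped between libraries, while no other neighbours in this order did. In the IP, Jund led with 69.0 ± 1.39 CPM per kb, above Fosl2 (20.5 ± 3.04), which in turn lay above the rest. Each of the other members overlapped its neighbour, and they ran from Fosb (11.1 ± 1.19) through Jun (9.77 ± 1.39), Fos (8.20 ± 1.26) and Fosl1 (5.66 ± 2.07) to Junb (4.97 ± 1.28 CPM per kb). The lower places depended on the length used. With all reads of a gene divided by its exon length not shared with another gene, Fosl1 reached 13.2 ± 4.85 CPM per kb in the IP. That lay above Fosb and below Fosl2 in the mean but overlapped both. In total RNA, Fosl1 (4.23 ± 0.194) lay above Fosb with no overlap. With the longest transcript, Fosb (2.79 ± 0.373) lay above Fosl1 (1.97 ± 0.0904 CPM per kb) in total RNA with no overlap. Jund ranked first in both groups, and Junb was the third in total RNA and among the last 2 in the IP, with each of the 3 lengths.

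The make-up of the family was also computed within each library as a share of summed CPM per kb, a measure that does not depend on scaling between libraries. In turn, Jund made up 85.0%, 81.3% and 81.0% of Jun family mRNA in the IP and 44.2%, 42.4% and 42.4% in total RNA. The share of Jun was 36.2 ± 2.07% in total RNA and 11.6 ± 1.38% in the IP, and that of Junb 20.8 ± 1.07% and 5.94 ± 1.53% (SD, n = 3 each). Per library, Jund was 6.13 to 8.04 times as abundant as Jun in the IP and 1.12 to 1.30 times in total RNA.

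Among the Fos genes, Fos was the main mRNA of total RNA and Fosl2 that of the IP. Fos made up 49.3%, 58.1% and 58.2% of Fos family mRNA in total RNA and 18.7%, 14.5% and 21.2% in the IP. Fosl2 made up 30.3 ± 3.99% in total RNA and 44.9 ± 4.88% in the IP, and Fosb 7.02 ± 1.01% and 24.5 ± 2.71% (SD, n = 3 each). The Jun genes together took 79.6 ± 1.16% of all family mRNA in total RNA and 64.8 ± 1.94% in the IP. That gap depended on the length used, with 65.6 ± 3.35% and 34.7 ± 3.01% without division by length. The Jun genes took 84.4 ± 0.901% in total RNA and 75.3 ± 1.75% in the IP when all reads of a gene were divided by its unshared exon length. No share of a member or of the Jun genes together overlapped between groups. Those of Jund and Fosb within their families and of the Jun genes together were the 3 planned for testing. Every share, planned or not, gave p = 0.1 (two-sided exact permutation test, also 0.1 after Benjamini-Hochberg adjustment), the smallest that 3 against 3 libraries allow. For Jund within the Jun genes this followed from the levels, with Jund higher and Jun and Junb lower in every IP library.

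**Figure D4:**
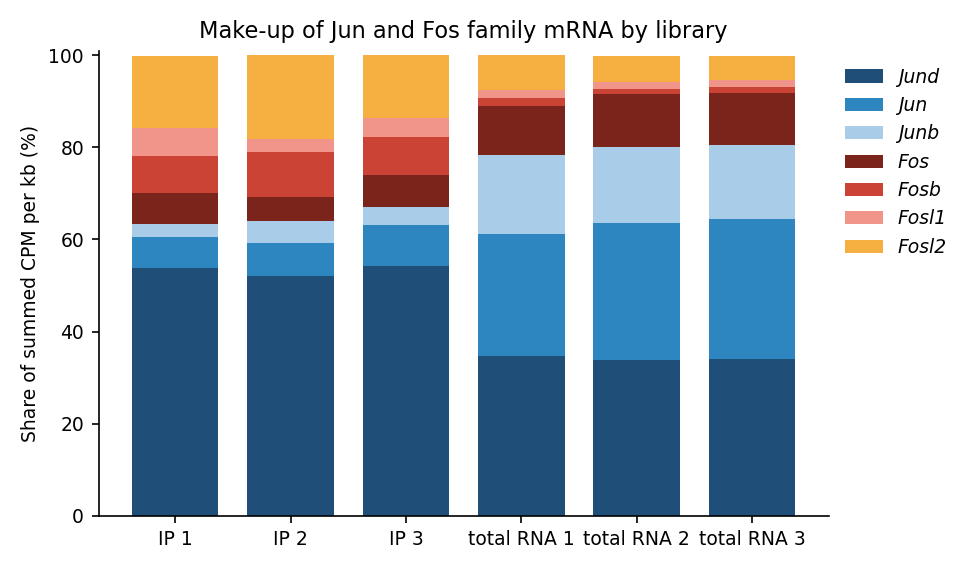
Share of each mRNA in the summed CPM per kb of the 7 family members (stacked to 100%), for each of the 6 libraries. The Jund segment is 52.1% to 54.3% of IP bars and 33.9% to 34.6% of total RNA bars, and the Jun and Junb segments are narrower in the IP.

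Sequence features of the longest coding transcript of each member were set beside those of the 13481 genes tested with such a transcript, as a description with no test. In these transcripts the Jun genes have 1 exon each and the Fos genes 4. Of 458 single-exon genes, 91 were enriched and 142 depleted, and of genes with several exons 31.8% and 36.6%. By GC content of the transcript, Jund (67.1%) was above 99.8% of genes and Junb (62.6%) above 98.4%. Of the 33 genes with at least the GC content of Jund, 5 were enriched and 15 depleted. Jund, Junb, Fosl1 and Fos are also short, at 1668, 1809, 1864 and 2108 nt, and of all tested transcripts of at most 2200 nt, 10.7% were enriched and 58.7% depleted.

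C triplets, counted as every overlapping CCC on the sense strand, were dense in the 3′ UTR of Jund, with 37 in 533 nt or 69.4 per kb, a density above 99.3% of tested genes. Junb followed with 53.6 per kb and Fosb with 48.5 per kb (104 in 2145 nt). Fosl1 had 31.3, Fosl2 22.6, Jun 15.4 and Fos 4.91 per kb, the last above only 9.11% of genes. Of the 90 genes with at least the density of Jund, 60.0% were enriched and 12.2% depleted. Of the 1174 genes with at most the density of Fos, 8.94% were enriched and 60.2% depleted. Junb went against that pattern among the members, as a C-dense and depleted mRNA. Of the 303 genes with at least its density, 161 (53.1%) were enriched and 52 (17.2%) were, like Junb, depleted. Among all tested genes with a coding transcript, 31.4% were enriched and 36.4% depleted. Nearly all tested 3′ UTRs (97.5%) held a C triplet.

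**Figure D5:**
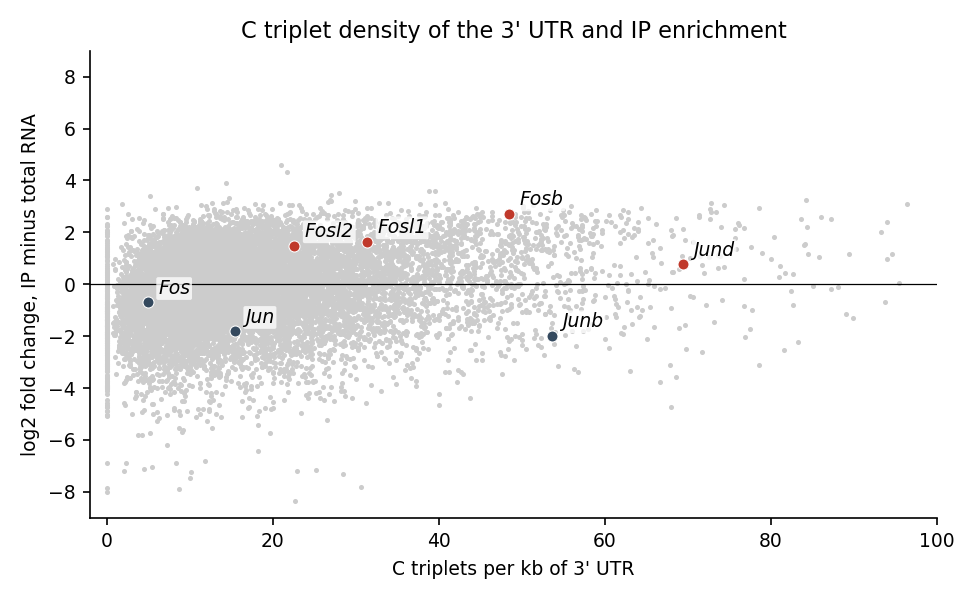
Log2 fold change, hnRNPK IP minus total RNA, against C triplets per kb of 3′ UTR for 12872 genes tested with at least 100 nt of 3′ UTR (grey), with enriched members in red and depleted ones in dark blue. Jund (69.4 per kb) and Junb (53.6 per kb) lie far to the right on opposite sides of 0, Fos lies at the left edge, and 14 genes fall outside the axes.

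Of the 24 features computed, 3 separated all enriched members from all depleted ones. These 3 were picked out after their values were seen. TCCC in the 3′ UTR, which overlaps the C triplet, stood at 6.66 to 14.5 per kb in the enriched members and 2.43 to 4.12 in the depleted ones. C triplets in the coding sequence stood at 38.7 to 49.9 per kb against 24.9 to 36.7. ATTTA in the 3′ UTR stood at 0.466 to 1.88 per kb in the enriched members and 3.24 to 4.91 in the depleted ones. A TCCC was found in 91.3% of tested 3′ UTRs and an ATTTA in 71.8%.

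Across genes, which are not independent replicates and share length and base composition, Spearman's rho with the log2 fold change was 0.265 for TCCC in the 3′ UTR, 0.224 for C triplets in the coding sequence and 0.0419 for ATTTA in the 3′ UTR. Transcript length gave 0.504. Of the 824 genes with at least the ATTTA density of Fos, 12.5% were enriched and 54.0% depleted. These shares were 31.4% and 36.4% among all tested genes with a coding transcript. They were 10.7% and 58.7% among transcripts of at most 2200 nt, and the part of length was not tested.

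The members' profiles over the 6 libraries resembled those of many other genes, by the Euclidean distance between centred log2 CPM values among 10282 genes with at least 5 CPM. Nearest to Jund were Wdr47, Pcif1 and Tmem260 (distances 0.0637 to 0.0981), and 1123 genes lay within 0.5 of it. Fosb was nearest to Xpr1, Iqsec2 and Creb3l1 (0.184 to 0.218), with 120 genes within 0.5. For Fosl2, 715 genes lay within 0.5. Jun was nearest to Pdia5, Dctn2 and Cacfd1 (0.119 to 0.143), with 411 genes within 0.5, and Fos to Fbxw4, Ddost and Spg21 (0.0773 to 0.107), with 810. Junb (nearest Gabarapl2, Trmt10c and Fam50a, 0.189 to 0.231) and Fosl1 (nearest Rhoj, Pcdhgc5 and Gpr45, 0.332 to 0.444) had fewer near neighbours, 81 and 12 within 0.5. Within the family the closest pair was Jun and Junb, at 0.615.

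Other genes of the AP-1 pathway are given from 5 lists, beside a median log2 fold change of −0.07 over all genes tested. Of all genes tested, 28.9% were enriched and 33.6% depleted. Of 15 bZIP genes whose proteins can pair with Jun or Fos proteins or share their sites, 11 were tested, 5 of them enriched and 3 depleted, with a median of 0.34. Atf7, a partner of Jun, was enriched, with 115 ± 15.6 CPM in the IP and 23.6 ± 2.22 CPM in total RNA (SD, n = 3 each; log2 fold change 2.28 ± 0.13), and Maf was enriched at 1.21 ± 0.24. Jdp2, a repressive partner of Jun, was depleted at −1.49 ± 0.31, as was the stress-induced Atf3 at −0.98 ± 0.15. Batf, Batf2, Batf3 and Nrl had 23 reads or fewer each over the 6 libraries and were not tested.

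The JNK and ERK routes phosphorylate Jun and Fos proteins or induce their genes. Of 36 genes for their kinases, scaffolds and phosphatases, 21 were enriched and 8 depleted (median 0.57). The counts were 14 and 12 with library totals alone, and 17 and 12 with the offset for gene length. Sos1, the exchange factor that activates Ras, was enriched at 2.39 ± 0.15, and the ERK-activated kinase gene Rps6ka3 at 2.18 ± 0.11. Hras was depleted at −2.66 ± 0.16, with 14.8 ± 2.77 against 93.4 ± 8.16 CPM (SD, n = 3 each). The JNK scaffold Mapk8ip1, abundant in beta cells, was depleted at −1.81 ± 0.08.

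Of 17 genes for regulators of Fos and Jun transcription or of the stability and partners of the proteins, 10 were enriched and 5 depleted (median 1.14). The CREB coactivators Crtc2 (2.67 ± 0.11) and Crtc1 (2.42 ± 0.09) were highest. Cops5, which encodes the Jun coactivator Jab1, was lowest at −2.85 ± 0.21, followed by Atf1 at −1.37 ± 0.13.

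Of 10 genes for proteins that bind AU-rich or C-rich mRNA, 9 were tested, with 7 enriched, 2 depleted and a median of 0.77. Pcbp2, a poly(C)-binding relative of hnRNPK, was enriched at 2.25 ± 0.08, and Khsrp, which promotes decay of AU-rich mRNAs, at 2.19 ± 0.08. Tia1 was depleted at −0.98 ± 0.14. Pcbp1 was depleted at −0.44 ± 0.13, a call that ended without total RNA replicate 2 (−0.37) or 3 (−0.38) and turned to 0.13 with the offset for gene length.

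Of 22 textbook AP-1 targets 18 were tested, and 6 of these were enriched and 6 depleted (median −0.20). Cd44, a hyaluronan receptor, was enriched at 2.66 ± 0.22 and the cell cycle inhibitor gene Cdkn1a at 2.15 ± 0.15. Cdkn2a was depleted at −2.67 ± 0.18 and the secreted phosphoprotein gene Spp1 at −2.47 ± 0.23. With the offset for gene length, 8 of the named list genes moved by more than 1.5-fold and kept their calls. It lowered Atf7 to 1.47, Maf to 0.59, Sos1 to 1.60, Rps6ka3 to 1.55 and Crtc1 to 1.62, and brought Cdkn2a and Spp1 to −1.83 each and Tia1 to −1.94. All list genes named here as enriched or depleted were called by edgeR's quasi-likelihood test with Benjamini-Hochberg adjustment over all genes tested.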

How the data were processed

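RNA was sequenced from 3 hnRNPK immunoprecipitates and 3 total RNA samples of glucolipotoxic Min6 cells, grouped by sample title. The authors deposited raw whole-number read counts by gene, in a separate table for each library. Per the submitters' processing notes, reads were aligned to mm10 with TopHat2 and counted with featureCounts. The sources used here do not give versions, annotation release, strand setting or the handling of mates and shared reads. Gene identifiers of the files were matched without version to GENCODE M21 (GRCm38), and 53274 of 53379 had a symbol there. The file's version of the Fosl1 identifier differs from M21, so its gene model may differ.

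Tests used edgeR 4.0.16 in R 4.3.3 (TMM factors, filterByExpr with a minimum count of 10 and a minimum total of 15, glmQLFit and glmQLFTest on the group alone), and p-values were adjusted by Benjamini-Hochberg over the 16929 genes tested, with a threshold of 0.05. The procedure was run on simulated data in which 200 genes changed and the spread was the same in both groups. In these libraries 62.4% of genes tested were called and IP libraries varied more, a setting that the simulation did not cover. CPM includes the TMM factors. CPM per kb divides by the union of annotated exons. Log2 CPM for profile distances used a prior count of 2. Pairs of libraries within a group differed beyond sampling noise (chi-square per degree of freedom of 6.08 to 113). Alternatives used library totals, DESeq2 1.42.0 or its size factors, limma-voom (limma 3.58.1), other filters, halved counts, offsets for gene length or GC content, a replicate block, and each library left out. The members and lists were chosen with earlier results of these data known. Named list genes are up to 2 called genes from either end of each list by log2 fold change, and the 3 nearest profiles per member leave out predicted genes and pseudogenes. The nearest profiles of Fosl2 are not reported here. Marker genes printed with values were chosen after these were seen.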

Additional observations from a re-analysis of the deposited data

How the results depend on the processing

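The calls of the 7 members were the same in each alternative run. Over all genes, 4892 were enriched and 5680 depleted in the main run. The counts moved most with library totals alone, to 3447 enriched and 7278 depleted. Library totals alone shifted the median of all genes by −0.43 on the log2 scale and left 32.1% of calls enriched, against 46.3%. With library totals alone, 2 dimer partners were enriched and 5 depleted, and 5 were depleted with the offset for gene length. That offset left 1 depleted gene among proteins that bind AU-rich or C-rich mRNA, where leaving out single libraries gave 1 to 2, and it turned Pcbp1 to 0.13; the cause was not tested. Whether replicate numbers pair the libraries could not be decided from these counts. Same-numbered IP and total RNA libraries had correlations of their deviations from the group means of 0.000874, −0.0709 and 0.120. Those of unlike number ran from −0.189 to 0.138, a range that covers the same-numbered ones. With the replicate block, 4384 genes were enriched and 5364 depleted, and Jund stood at 0.77. Jund's share of Jun family mRNA was 90.1% in the IP and 59.5% in total RNA when only exon positions not shared with another gene were used as length, an alternative added after seeing the data, since 877 nt of Jund are shared with the antisense gene Gm11175. It was 73.0% and 30.5% with no division by length. Among counts of 1 to 20, 58.6% to 68.7% were even, so mates may have been counted singly. The orders of level by other lengths were likewise added after seeing the data. Fosl1 rests on 186 to 545 reads per library.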
